A study of Mus musculus with 4 samples.

Results

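The cells described here are liver regulatory T (Treg) cells of mice at 2 ages, 12 days and 7 weeks. They were chosen by a rule on their own counts: a cell barcode needed at least 500 detected genes, at most 10% mitochondrial UMIs, at least 1 Foxp3 UMI and fewer than 8 UMIs summed over 9 mitosis genes (Ccnb1, Ccnb2, Cdc20, Cenpf, Ube2c, Tpx2, Birc5, Top2a and Mki67). The rule kept 5056 cells of the 24546 barcodes listed in 4 libraries. Of these cells 3642 came from the 12-day liver (45.2% of its 8055 barcodes) and 1414 from the 7-week liver (54.2% of its 2608 barcodes). The same rule kept 4039 cells of a 12-day spleen library and 3782 cells of a 7-week spleen library, which are used only for values set beside those of the liver.

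The study profiled CD4+ Foxp3GFP+ cells from mouse liver and spleen by droplet single-cell RNA sequencing with a 5' kit, and set Treg cells of the neonatal liver beside those of 7-week mice. Cells were enriched on CD4 beads and then sorted, from C57BL/6 mice with a GFP tag on Foxp3. The 12-day mice are described as Foxp3GFP-Cre Rosa26loxP-Stop-loxP-YFP, in which Cre made by Foxp3-expressing cells switches on YFP in them and their progeny. For the 7-week mice the design text gives no genotype beyond the shared Foxp3GFP tag, no treatment is named for either age, and the 7-week libraries carry the stage label "aged". Each age and tissue is 1 library, from a number of mice that the labels leave out. Differences between ages therefore stand without replicates and without p-values. Age cannot be told apart from genotype, litter, sort or library.

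Treg cells are CD4+ T cells that restrain immune responses, and Foxp3 is the transcription factor that defines them. Resting Treg cells recirculate through blood and lymphoid organs under the control of Klf2, S1pr1 and Ccr7, whereas effector Treg cells in tissues carry inhibitory receptors, chemokine receptors and mediators such as granzyme B and IL-10. The liver in early life also changes from a blood-forming to a metabolic organ, and receives blood from the gut.

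UMIs were summed over the cells of a library and divided by the library's summed UMIs, as CPM (UMIs of a gene per 1000000). Ratios are given with exact 95% conditional binomial intervals in square brackets, which cover counting error only. In such sums, fewer cells of a type and less RNA per cell cannot be told apart. The 12-day cells held 19406950 UMIs in all, with a median of 4657 UMIs and 1822 genes per cell, and the 7-week cells 4598566 UMIs, with medians of 2889 and 1246. Median mitochondrial shares were 1.98% and 1.17%, and ribosomal protein genes took 24.1% and 27.0% of UMIs. The ages also differed in sex-linked RNA: Xist, the RNA that coats the silent X of females, had 301 CPM at 12 days and 129 CPM at 7 weeks, and the Y-linked Ddx3y at 7.99 and 24.8 CPM. The part of sex and depth in the differences below was not tested, apart from the settings with cells thinned to equal depth. The 2 liver libraries shared 24 barcode sequences, of which 8 belonged to chosen cells of each.

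The rule itself used Foxp3 and the mitosis genes, so their values describe the choice and are no result. Foxp3 stood at 586 CPM in the 12-day and 703 CPM in the 7-week liver cells, and 29.5% and 38.5% of the cells were selected on a single Foxp3 UMI. Before the mitosis limit, 73.3% and 60.1% of filtered barcodes held a Foxp3 UMI. The limit then removed 515 cells (12.4%) at 12 days and 44 cells (3.02%) at 7 weeks. Just inside it, 19 cells at 12 days and 5 at 7 weeks held 7 mitosis UMIs. Just outside it, 19 and 5 cells held 8.

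Markers of T cells and Treg cells were abundant. Each of 5 T cell markers (Cd3e, Cd3d, Cd3g, Cd4 and Trac) was present at both ages, with a summed level of 4502 CPM at 12 days and 3650 CPM at 7 weeks. The 5 Treg markers (Foxp3, Il2ra, Ctla4, Ikzf2 and Tnfrsf18) summed to 2574 and 2147 CPM. Foxp3, used by the rule, gave 586 and 703 CPM of these sums, which thus partly describe the choice of cells. Defining markers of most other cell types were near 0. The 8 hepatocyte markers summed to 16.4 and 18.9 CPM, erythroid markers to 2.63 and 0.652 CPM, and macrophage and Kupffer cell markers to 4.12 and 0.87 CPM. Markers of NK cells and innate lymphoid cells summed to 14.3 and 1.3 CPM, with Ncr1 at 0 at both ages, and those of neutrophils to 1.8 CPM at 12 days and 0 at 7 weeks. The B cell list reached 660 and 551 CPM, mostly Ighm (599 and 518 CPM), while Cd79a, a defining B cell gene, stood at 14.4 and 0.87 CPM. Class II antigen presentation genes of dendritic cells were higher at 12 days as well, H2-Aa at 16 and 1.74 CPM and H2-Ab1 at 9.74 and 0.652 CPM. The part of these RNAs in the differences was tested by leaving cells out. Without the 36 and 8 cells with at least 3 UMIs of another lineage, without counting Ighm, Cd74, Cd79b, Epcam and Pecam1, which the chosen cells of all 4 libraries hold, each of the 81 named genes that were at least 2-fold different stayed so. With those 5 genes counted, the cells left out were 54.1% at 12 days and 27.6% at 7 weeks, and 66 of the 81 stayed so (81.5%).

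A level of 25 CPM or more in either liver library was reached by 5198 genes, of which 170 were at least 2-fold higher at 12 days (3.27%) and 271 were at least 2-fold higher at 7 weeks (5.21%). The median log2 ratio of these genes, 12 days over 7 weeks, was 0.06. Gene lists are described below over members with 10 CPM or more in either liver library. At that level 7758 genes were measured, of which 315 (4.06%) were at least 2-fold higher at 12 days and 459 (5.92%) at 7 weeks, with a median of 0.01. Among named genes, which needed 25 CPM and 100 UMIs in either library, the highest ratios at 12 days belonged to Ccl3, Ccl4, Cela1, Igf2bp3, Gzmb and Nkg7, and the highest at 7 weeks to Gbp2b, Prg4, Oas1a and Ifit3b. The plot of CPM at both ages shows these groups on opposite sides of the diagonal.

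**Figure D1:**
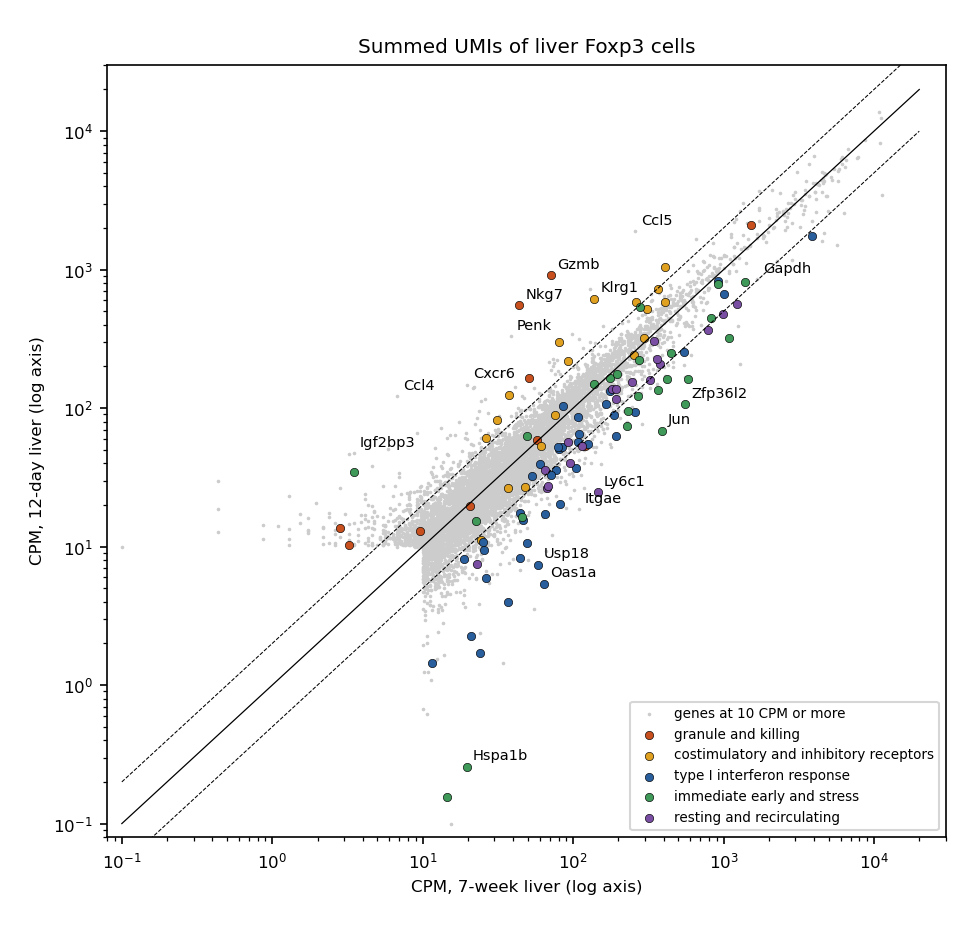
Summed UMIs of liver Foxp3 cells in CPM, 7-week liver on the x axis and 12-day liver on the y axis, both log axes, with a gene at 0 drawn at the axis end, for genes at 10 CPM or more in either library. Solid line, equal levels; dashed lines, 2-fold; colours mark 5 gene lists. Gzmb and Nkg7 lie far above the upper dashed line and Oas1a, Usp18 and Hspa1b far below the lower one.

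Treg identity genes differed in both directions. The Treg identity list had 17 measured members, of which 1 was 2-fold higher at 12 days and 2 at 7 weeks, with 8 members above 0, 9 below and a median log2 ratio of -0.26. Foxp3, used by the rule, is among these members and itself has a log2 ratio of -0.26. The list's median and its count below 0 thus partly describe the choice of cells. Ikzf2, which encodes the transcription factor Helios, stood at 533 CPM at 12 days and 437 CPM at 7 weeks, and Ctla4, the inhibitory receptor of Treg cells, at 587 and 408 CPM. Il2ra, the high-affinity chain of the IL-2 receptor, was lower at 12 days (148 against 229 CPM), whereas the signalling chain gene Il2rb was higher (646 against 403 CPM). Tnfrsf4, which encodes the costimulatory receptor OX40, was the member 2-fold higher at 12 days, at 1048 against 409 CPM (2.57-fold [2.45 to 2.69]). Nrp1, a receptor common on thymus-derived Treg cells, stood at 77.4 CPM at 12 days and 167 CPM at 7 weeks, 2.16-fold higher at 7 weeks [1.97 to 2.35]. Nt5e, the ectoenzyme CD73 that makes adenosine, was 2.02-fold higher at 7 weeks [1.76 to 2.31]. The sign of this list's median was not stable, and it was 0.02 without the requirement for a Foxp3 UMI, 0.03 without cells with other lineage markers and 0.07 without cells in DNA replication.

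Igf2bp3 was the fetal gene that separated the ages. It encodes an RNA-binding protein of fetal tissues and fetal blood stem cells. It stood at 47.5 CPM in the 12-day liver cells (921 UMIs) and 3.48 CPM in the 7-week liver cells (16 UMIs), which is 13.6-fold [8.35 to 24.0]. The spleen cells gave 61.2 CPM at 12 days and 5 CPM at 7 weeks. The gene lies at chr6:49085223-49214957 on the minus strand of GRCm38. In the 12-day liver the 10 cells with most UMIs held 3.80% of them. Its UMIs were not particular to Foxp3 cells. With barcodes thinned to 1500 UMIs, an Igf2bp3 UMI was found in 6.89% of the 12-day and 0.64% of the 7-week Foxp3 cells, but also in 3 of 16 barcodes of the 12-day liver that held markers of another lineage and no Cd3 UMI (18.8%, exact 95% interval 4.05 to 45.6%). These few barcodes may make the RNA themselves, and the 7-week liver had none, so they give no measure of free RNA. The part of free RNA in the ratio between libraries cannot be told apart. Exons of Igf2bp3 overlap Malsu1 on the other strand, and no source used here gives the strand setting of the counting. Only 4 of the 20 genes of the fetal and neonatal list reached 10 CPM, the others being Cdkn1c (17.1 and 10.9 CPM), Arid3a (14.6 and 10.7 CPM) and the chromatin protein gene Hmga1 (89.3 and 68.7 CPM). Lin28a, Lin28b and Igf2bp1, partners of Igf2bp3 in fetal cells, had no UMI at either age.

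Granule genes were higher in the 12-day cells. Of 10 measured members of the granule and killing list, 5 were at least 2-fold higher at 12 days and 1 at 7 weeks, with a median log2 ratio of 1.05. Gzmb, the protease granzyme B, stood at 912 CPM at 12 days and 71.3 CPM at 7 weeks (12.8-fold [11.5 to 14.3]), and lies at chr14:56258838-56262260 on the minus strand. Nkg7, a membrane protein of cytotoxic granules, stood at 551 and 43.9 CPM (12.5-fold [10.9 to 14.5]), and lies at chr7:43437073-43438249 on the plus strand. Both genes were also higher at 12 days in spleen, at lower levels: Gzmb at 184 and 22.4 CPM, and Nkg7 at 127 and 62.0 CPM. Cst7, which encodes the protease inhibitor cystatin F of granules, stood at 165 and 51.1 CPM in liver and at 170 and 159 CPM in spleen. Below these levels, the pore-forming Prf1 stood at 13.6 and 2.83 CPM and the death ligand gene Fasl at 10.3 and 3.26 CPM. Srgn, the proteoglycan that packs granules, differed by 1.37-fold, and Lamp1, a lysosomal membrane protein, was 2.24-fold higher at 7 weeks [2.02 to 2.49]. The granule genes thus did not all move together.

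The difference in Gzmb was also seen in the share of cells with a UMI. Such a share also falls with less RNA per cell, so it cannot tell fewer cells from less RNA per cell. With each cell thinned to 1500 UMIs, which leaves 3396 cells at 12 days and 1250 at 7 weeks, a Gzmb UMI was found in 33.3% and 5.28% of cells, and an Nkg7 UMI in 30.7% and 4.16%. Among the 16 thinned barcodes of another lineage in the 12-day liver, none had a Gzmb, Nkg7, Ccl5 or Klrg1 UMI, which with so few barcodes allows a share of up to 20.6% for each gene. The median depth of such barcodes before thinning was 3158 UMIs, and the 7-week liver had none. The 10 cells with most Gzmb UMIs held 6.36% of them at 12 days and 29.0% at 7 weeks.

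Secreted mediators moved in both directions. Of 20 measured genes, 7 were at least 2-fold higher at 12 days and 5 at 7 weeks, with a median of 0.68. Ccl5, a chemokine that attracts T cells, was the most abundant at 12 days, with 1886 CPM at 12 days and 259 CPM at 7 weeks (7.28-fold [6.87 to 7.72]), and its UMIs were found in 41.2% and 9.28% of thinned cells. Il10, the suppressive cytokine, stood at 50.6 and 5.87 CPM (8.62-fold [5.89 to 13.1]). Penk, which encodes the opioid precursor proenkephalin, stood at 330 and 38.5 CPM (8.57-fold [7.38 to 10.0]).

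The chemokine genes Ccl3 and Ccl4 had the widest ratios and rested on few cells. Ccl3 stood at 29.9 CPM at 12 days and 0.435 CPM at 7 weeks, the latter from 2 UMIs, which gives 68.7-fold [18.9 to 569]. Ccl4 stood at 122 and 6.74 CPM (18.1-fold [12.7 to 26.7]), and 10 cells held 67.8% of its UMIs at 12 days and 100% at 7 weeks. In the opposite direction, Cxcl10, an interferon-induced chemokine, stood at 9.28 CPM at 12 days and 66.5 CPM at 7 weeks (7.17-fold higher at 7 weeks [5.95 to 8.67]), with 56.1% and 58.5% of UMIs in 10 cells. Lta, which encodes lymphotoxin alpha, was 2.58-fold higher at 7 weeks [2.09 to 3.17].

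Homing receptors differed in both directions. Of 26 measured chemokine receptors and adhesion genes, 4 were at least 2-fold higher at 12 days and 9 at 7 weeks (median -0.55). Cxcr6, the receptor for CXCL16 that holds lymphocytes in the liver sinusoids, stood at 148 CPM at 12 days and 19.6 CPM at 7 weeks (7.55-fold [6.12 to 9.41]). Ccr8, a receptor of effector Treg cells in tissues, stood at 181 and 27.2 CPM (6.66-fold [5.57 to 8.03]). Among the 9 genes higher at 7 weeks, the named ones with the widest ratios were Gpr15, Itgae and Ccr6. Itgae, the integrin chain CD103 that binds E-cadherin, stood at 18.6 CPM at 12 days and 109 CPM at 7 weeks (5.88-fold [5.13 to 6.75]). Gpr15, a homing receptor for the large intestine, stood at 6.75 and 44.4 CPM (6.57-fold [5.25 to 8.25]), and Ccr6, the receptor for CCL20, at 11.1 and 38.3 CPM (3.44-fold [2.80 to 4.22]). Exons of Gpr15 overlap Cpox on the other strand.

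Costimulatory and inhibitory receptors were mostly higher at 12 days. Of 18 measured genes, 8 were at least 2-fold higher at 12 days and 1 at 7 weeks, with a median of 0.86. Klrg1, an inhibitory receptor of late effector cells that binds cadherins, stood at 619 and 138 CPM (4.49-fold [4.14 to 4.87]), with a UMI in 38.1% and 9.68% of thinned cells. Tnfrsf9, the receptor 4-1BB, stood at 301 and 80.9 CPM (3.72-fold [3.35 to 4.14]). Lag3, a receptor for MHC class II, stood at 125 and 37.6 CPM in liver, and Pdcd1, which encodes PD-1, at 82.7 and 31.3 CPM. In the spleen these last genes leaned the other way, Lag3 at 50.2 CPM at 12 days and 87.4 CPM at 7 weeks, and Pdcd1 at 76.1 and 108 CPM. Cd81, a tetraspanin, was 2.37-fold higher at 12 days in liver [2.15 to 2.63].

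Most cytokine receptors were lower at 12 days, 16 of 22 having a log2 ratio below 0 and 6 above, among them Il2rb. None of these genes was 2-fold higher at 12 days and 5 were 2-fold higher at 7 weeks (median -0.55). Il18r1, a chain of the IL-18 receptor, stood at 13.0 CPM at 12 days and 44.6 CPM at 7 weeks (3.43-fold [2.84 to 4.14]). Il17ra was 2.97-fold higher at 7 weeks [2.61 to 3.38] and Il7r, the receptor for the survival cytokine IL-7, 2.03-fold [1.90 to 2.15]. Il1rl1, the receptor for the tissue alarm cytokine IL-33, stood at 15.2 and 30.0 CPM. The tissue repair list, which shares Il18r1, Il1rl1, Penk and Klrg1 with the lists above, had 3 of 13 members 2-fold higher at 12 days and 2 at 7 weeks (median 0.26).

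**Figure D2:**
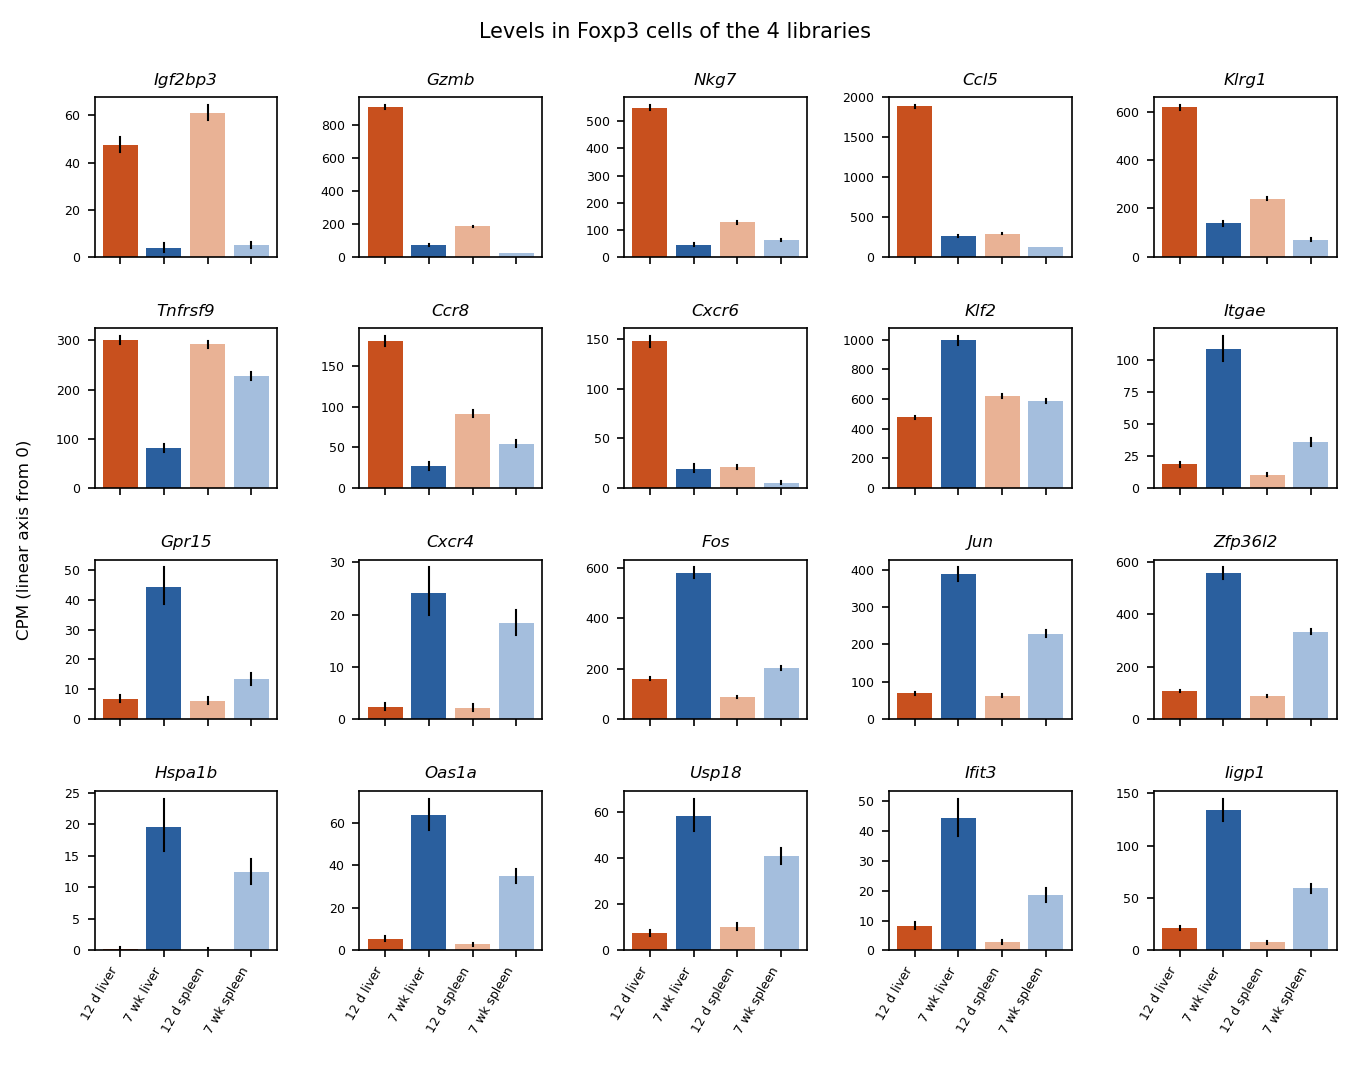
Levels in CPM (linear axes from 0) of 20 genes in the Foxp3 cells of the 4 libraries; bars are single libraries and lines exact 95% Poisson intervals. Gzmb was 912 CPM in 12-day liver against 71.3 CPM in 7-week liver, and Itgae 18.6 against 109 CPM.

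Transcription factors of T cell states differed in both directions. Of 24 measured, 4 were at least 2-fold higher at 12 days and 7 at 7 weeks (median -0.46). Tbx21, which encodes T-bet, stood at 39.3 CPM at 12 days and 17.2 CPM at 7 weeks (2.29-fold [1.81 to 2.92]), and Id2, an inhibitor of E proteins in effector cells, at 175 and 81.3 CPM (2.16-fold [1.94 to 2.41]). Ahr, a sensor of aromatic compounds, was 2.24-fold and Satb1, a chromatin organiser, 2.54-fold higher at 7 weeks.

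Genes of resting, recirculating T cells were lower in the 12-day liver. All 19 measured members of that list had a log2 ratio below 0, and 10 were at least 2-fold higher at 7 weeks, with a median of -1.02. Klf2, the transcription factor that keeps T cells circulating, stood at 475 CPM at 12 days and 995 CPM at 7 weeks (2.10-fold [2.02 to 2.17]). Tcf7, a factor of resting and stem-like T cells, stood at 53.4 and 114 CPM, and Bcl2, which protects resting lymphocytes from apoptosis, at 40 and 95.9 CPM (2.40-fold [2.13 to 2.70]). Ly6c1, a surface protein of central memory-like cells, had the widest ratio of the list, at 24.6 and 146 CPM (5.92-fold [5.26 to 6.68]). In the spleen the same list had a median of -0.12, with 8 members above 0 and none 2-fold different, and Klf2 stood at 620 CPM at 12 days and 584 CPM at 7 weeks. The difference between the tissues was not tested.

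Stress and immediate early genes were higher at 7 weeks. Of 24 measured genes, 12 were at least 2-fold higher at 7 weeks and 1 at 12 days (median -1.02). Jun, a subunit of the AP-1 transcription factor, stood at 68.8 CPM at 12 days and 388 CPM at 7 weeks (5.65-fold [5.26 to 6.07]), and its partner Fos at 161 and 581 CPM (3.62-fold [3.44 to 3.81]). Zfp36l2, which promotes the decay of AU-rich messenger RNAs, stood at 107 and 558 CPM (5.21-fold [4.91 to 5.52]). The antiproliferative gene Btg1 stood at 323 and 1083 CPM.

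The inducible HSP70 genes had the widest ratios of this list, from few UMIs. Hspa1a and Hspa1b, near-identical copies between which reads are hard to assign, stood at 0.155 and 0.258 CPM at 12 days (3 and 5 UMIs) and at 14.4 and 19.6 CPM at 7 weeks. The ratios, 92.8 [30.4 to 462] and 76 [31.4 to 240] in favour of 7 weeks, rest on those few UMIs. The spleen libraries gave 0.136 CPM for each at 12 days and 11.3 and 12.4 CPM at 7 weeks. Dnajb1, a cochaperone of HSP70, stood at 74.8 and 229 CPM in liver (3.07-fold [2.83 to 3.32]). Ier3, an early response gene, went against the list, at 34.4 CPM at 12 days and 3.48 CPM at 7 weeks (9.88-fold [6.04 to 17.4]). The labels do not give handling time or temperature by age, and their part in the stress genes was not tested.

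Most glucocorticoid-responsive genes were likewise higher at 7 weeks, 5 of 10 at least 2-fold (median -0.86). The list shares Cxcr4, Il7r and Dusp1 with the lists above, so it is not separate from them. Fkbp5 was the member above 0, at 16.5 CPM at 12 days and 13 CPM at 7 weeks (1.27-fold [0.96 to 1.7]). Tsc22d3, the target GILZ, stood at 169 and 553 CPM (3.26-fold [3.10 to 3.44]). Cxcr4, the receptor for CXCL12, stood at 2.37 and 24.1 CPM (10.2-fold [7.16 to 14.7]). In the spleen Tsc22d3 stood at 136 CPM at 12 days and 301 CPM at 7 weeks, and Cxcr4 at 2.13 and 18.4 CPM, so both tissues had the higher value at 7 weeks. Among TCR response genes, 2 of 14 were 2-fold higher at each age (median -0.24), with Nr4a1 at 96.2 and 64.8 CPM and Cd69, an early activation antigen that also retains cells in tissue, at 150 and 363 CPM.

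**Figure D3:**
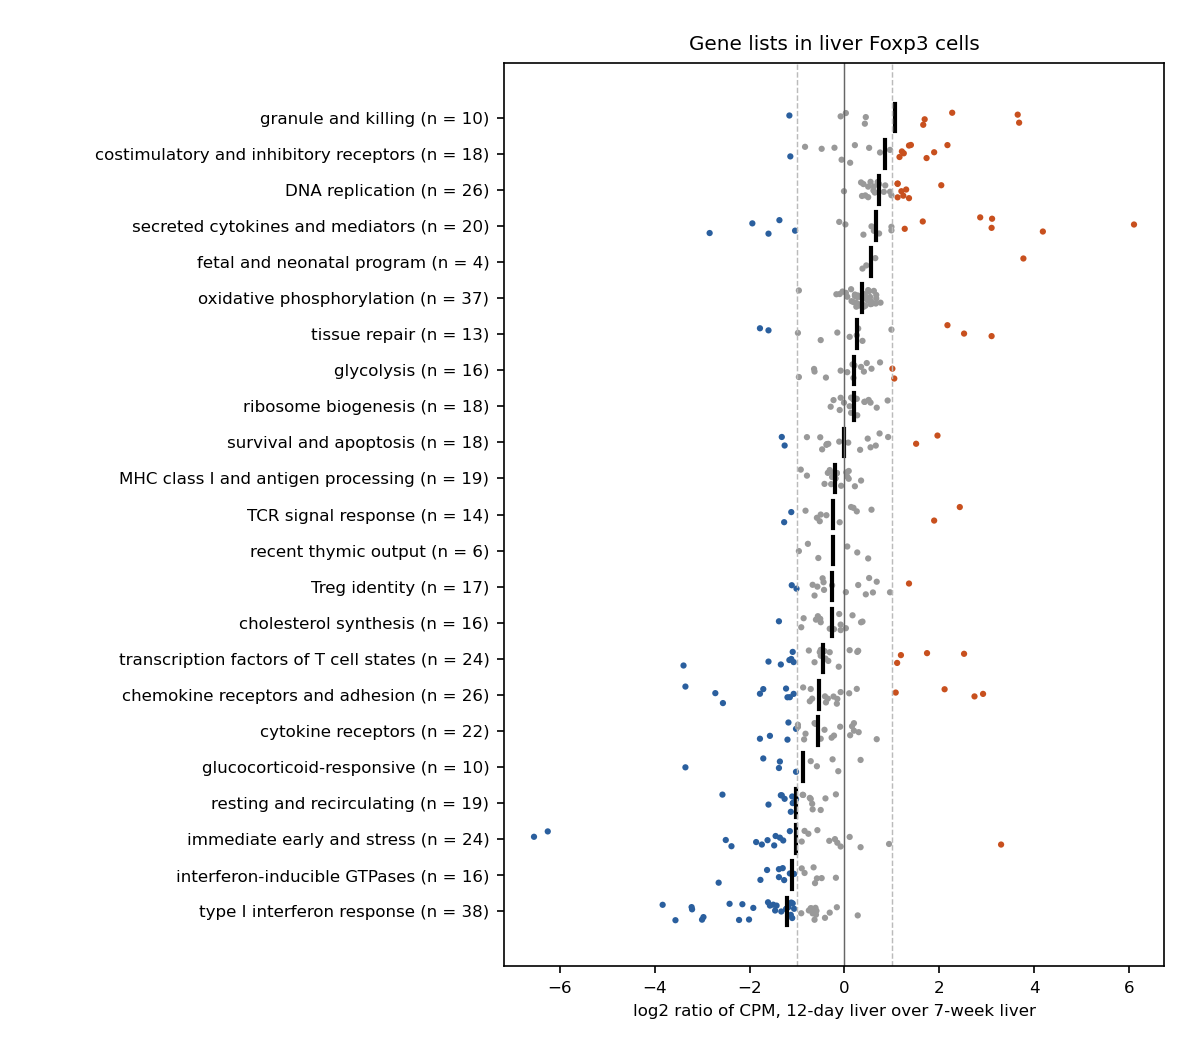
Log2 ratios of CPM, 12-day over 7-week liver, of the members of 23 gene lists with 10 CPM or more in either library; each point is a gene, orange at least 2-fold higher at 12 days, blue at least 2-fold higher at 7 weeks, bars the list medians. The granule list has the highest median (1.05) and the type I interferon list the lowest (-1.20).

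Among the lists, the type I interferon response had the most members 2-fold higher at 7 weeks. Type I interferons act through transcription factors that bind the interferon-stimulated response element (ISRE), a pair of GAAA boxes spaced by 2 bases (GAAANNGAAA, or TTTCNNTTTC on the other strand). Of 38 measured type I response genes, 25 were at least 2-fold higher at 7 weeks and none at 12 days, and 37 had a log2 ratio below 0 (median -1.20). Mx1 and Mx2 of this list were not matched in the files. Of 16 interferon-inducible GTPases, which attack vacuoles of intracellular pathogens, 9 were at least 2-fold higher at 7 weeks and all 16 were below 0 (median -1.11). In the spleen the medians were -0.91 and -1.07. MHC class I and antigen processing genes, which interferons also raise, had a median of -0.19 with none of 19 at 2-fold.

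The ISRE core was found within 250 bases before the start of 936 of 27025 gene symbols (3.46%) in the RefSeq promoter table. Among the type I response genes it was found in 14 of 29 with a promoter, in 12 of the 20 that were 2-fold higher at 7 weeks and in 2 of the 9 others. Among the GTPases it was found in 9 of 10, in 3 of the 3 that were 2-fold higher at 7 weeks and in 6 of the 7 others. A match describes the sequence only, and the list was drawn up of genes known to answer interferon. The promoters of 5 named genes that were at least 2-fold higher at 7 weeks are shown for their shared boxes, in RefSeq sequence of build GRCm38.p6, 50 bases each on the strand of the gene, with matches in capitals. They lie at chr5:120907526-120907575 (Oas1a, minus strand), chr19:34583387-34583436 (Ifit3, plus strand), chr11:48871421-48871470 (Irgm1, minus strand), chr11:58214893-58214942 (Irgm2, plus strand) and chr11:48992294-48992343 (Tgtp1, minus strand). Each lies before a start in RefSeq. The windows of Oas1a and Ifit3 lie outside the GENCODE gene, and those of Irgm1, Irgm2 and Tgtp1 lie inside it, at a start within the gene.
Oas1a: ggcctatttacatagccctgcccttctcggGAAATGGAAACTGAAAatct
Ifit3: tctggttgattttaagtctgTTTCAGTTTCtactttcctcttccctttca
Irgm1: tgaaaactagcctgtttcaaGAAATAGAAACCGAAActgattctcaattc
Irgm2: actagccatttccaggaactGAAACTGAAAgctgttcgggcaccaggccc
Tgtp1: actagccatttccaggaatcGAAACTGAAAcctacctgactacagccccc
Oas1a and Irgm1 each hold 3 boxes in a row, which count as 2 overlapping matches. The window of Ifit3b at chr19:34607783-34607832 is identical to that of Ifit3, and reads of these near copies can be split between them.

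The genes with these promoters differed by age as follows. Oas1a, a sensor of double-stranded RNA, stood at 5.41 CPM at 12 days and 63.7 CPM at 7 weeks (11.8-fold [9.39 to 14.9]). Ifit3, which restricts foreign RNA with its IFIT partners, stood at 8.30 and 44.4 CPM (5.35-fold [4.33 to 6.62]), with 49.7% and 47.1% of UMIs in 10 cells, and Ifit3b at 3.97 and 36.8 CPM. Irgm1 and Irgm2, regulatory GTPases, were 2.60-fold [2.32 to 2.90] and 3.10-fold [2.56 to 3.76] higher at 7 weeks, and the effector GTPase gene Tgtp1 3.41-fold [3.03 to 3.83]. Exons of Irgm2 overlap its neighbour Igtp, and those of Tgtp1 overlap Gm12185, each on the same strand. Tgtp2, of the same GTPase list, had a log2 ratio of -0.9.

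Other interferon genes with wide ratios had no printed promoter. Usp18, the protease that removes ISG15 and dampens interferon signalling, stood at 7.42 and 58.3 CPM (7.85-fold [6.39 to 9.69]). Iigp1, an effector GTPase, stood at 21.3 and 134 CPM (6.28-fold [5.54 to 7.14]), and in the spleen at 7.64 and 59.2 CPM. Gbp2b stood at 1.44 and 34.1 CPM (23.7-fold [15.8 to 36.8]), but it is a near copy of Gbp2, which stood at 102 and 161 CPM, so its counts are uncertain. Isg20 was the member above 0, at 104 CPM at 12 days and 86.1 CPM at 7 weeks. For the stress list, the cyclic AMP response element TGACGTCA, the same on both strands, was found in 3 of 20 promoters (Dusp1, Btg2 and Ppp1r15a) and in 478 of all 27025 symbols (1.77%).

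Some genes with wide ratios belonged to none of the lists. At 12 days, Cela1, a pancreatic-type elastase gene, stood at 46.8 CPM against 3.26 CPM (14.3-fold [8.65 to 25.7]), with 4.63% of its UMIs in 10 cells. Slamf7, a receptor of activated lymphocytes, stood at 26.4 and 2.83 CPM (9.35-fold [5.42 to 17.7]). Frmd5 was 7.22-fold [5.31 to 10.1] and Tmem273 8.38-fold [5.44 to 13.6] higher at 12 days. At 7 weeks, Prg4, the lubricant proteoglycan lubricin, stood at 54.8 CPM against 3.56 CPM at 12 days (15.4-fold [11.8 to 20.4]). Axin2, a feedback target of Wnt signalling, stood at 27.4 and 5.46 CPM (5.02-fold [3.84 to 6.56]). Ccnb1ip1 was 6.36-fold higher at 7 weeks [5.16 to 7.85], but its exons overlap the RNA gene Rpph1 on the same strand, and those of Prg4 overlap Tpr on the other strand. Exons of Slamf7, Penk, Jun, Zfp36l2, Usp18, Cxcl10, Axin2, Lamp1, Gapdh and Tpi1 also overlap a transcript on the other strand. The strand setting of the counting is not given, so whether reads of such partners entered the counts is not known.

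DNA replication genes were higher at 12 days although cells in mitosis had been left out. Of 26 measured genes, 8 were at least 2-fold higher at 12 days and none at 7 weeks, and 25 were above 0 (median 0.72). Mcm5, a subunit of the replicative helicase, stood at 40.7 and 15.9 CPM (2.56-fold [2.02 to 3.31]). The log2 ratios of Mcm5, Mcm3, Lig1 and Fen1 were 1.36, 1.30, 1.20 and 1.12. With cells thinned to 1500 UMIs they were 0.82, 1.27, 0.75 and 0.95, and with the rule applied after thinning 1.06, 0.98, 0.78 and 1.49. Without the 5% of cells with most UMIs they were 0.79, 0.86, 0.60 and 0.93. Cells with at least 3 UMIs of this list made up 61.3% of the 12-day and 35.4% of the 7-week cells, a share that also follows depth. The limit on mitosis UMIs bears on this list, since dividing cells pass through both states. Survival genes were mixed, with 2 of 18 at least 2-fold higher at each age (median -0.02). Bcl2a1d and Bcl2a1b, near copies that protect activated cells, stood at 64.2 against 16.5 CPM and 213 against 74.6 CPM, and the proapoptotic Pmaip1 at 10.8 against 27.0 CPM.

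Metabolic genes differed by less than 2-fold in most cases. Oxidative phosphorylation genes were above 0 in 33 of 37 (median 0.37), none at 2-fold, led by Atp5g3, a subunit of ATP synthase, at 979 and 578 CPM. Among 16 glycolysis genes (median 0.20), Slc16a3, a lactate exporter, and Tpi1, triosephosphate isomerase, were 2.07-fold [1.63 to 2.68] and 2.02-fold [1.86 to 2.20] higher at 12 days. Gapdh went the other way, at 854 CPM at 12 days and 1658 CPM at 7 weeks. Ribosome biogenesis genes had a median of 0.20 with none of 18 at 2-fold. Cholesterol synthesis genes had a median of -0.27, with 1 of 16 2-fold higher at 7 weeks. Of 6 measured genes of recent thymic output none reached 2-fold (median -0.25).

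The age ratios of liver and spleen, taken from separate libraries, had the same sign for most genes. Libraries of the same age may still share mice, genotype and sort. Xist also differed by age in spleen, at 290 CPM at 12 days and 150 CPM at 7 weeks. Signs shared by the tissues therefore cannot be told apart from such shared factors. Over 4884 genes at 25 CPM or more in a library of each tissue, Pearson's r of the log2 ratios was 0.816 and Spearman's rho 0.816, across genes that are not independent. Of the 170 genes 2-fold higher at 12 days in liver, 57 were 2-fold higher at 12 days in spleen (33.5%), against 1.69% of all 5198 genes. In spleen 159 were above 0 (93.5%), against 55.9% of all, and none was 2-fold the other way. Of the 271 genes 2-fold higher at 7 weeks in liver, 99 were so in spleen (36.5%), against 2.89% of all, and 266 were below 0 there (98.2%), against 44.1% of all. Igf2bp3, at 13.6-fold in liver and 12.3-fold in spleen, and Oas1a, at 11.8- and 12.5-fold higher at 7 weeks, had like ratios in both tissues. Nkg7, at 12.5-fold in liver, was 2.05-fold higher at 12 days in spleen, and Slamf7 at 9.35-fold was 1.33-fold. The difference between the tissues was not tested.

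**Figure D4:**
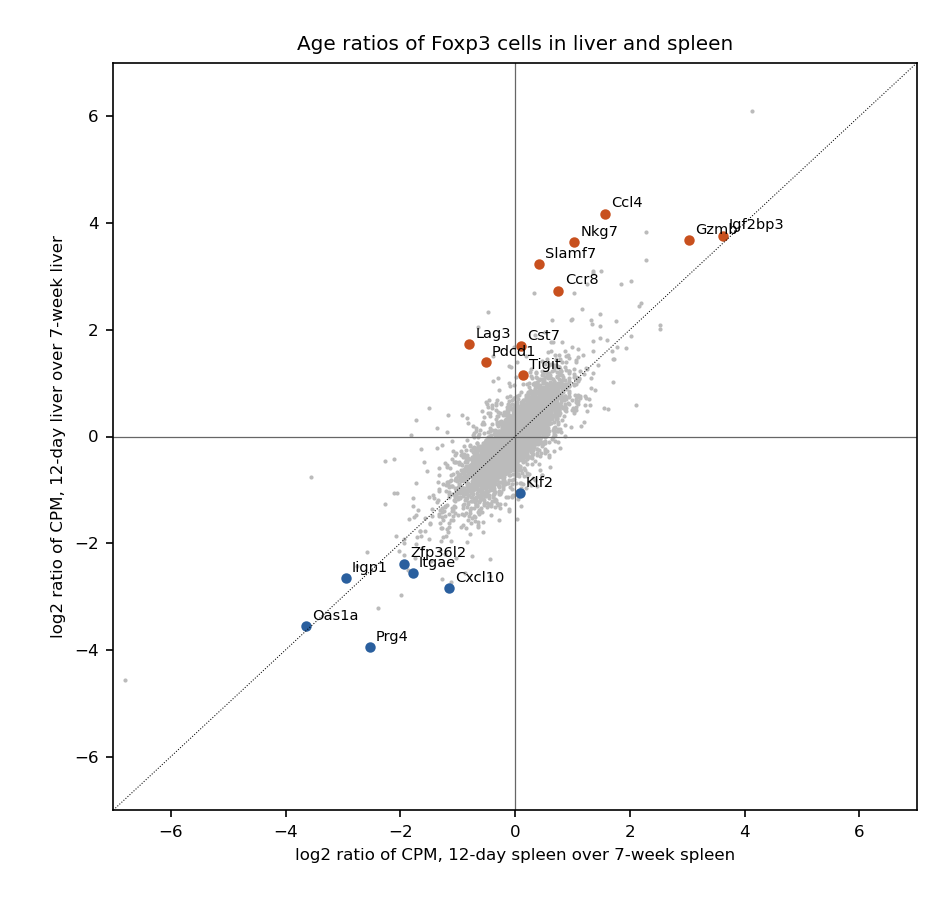
Log2 ratios of CPM, 12 days over 7 weeks, in spleen (x axis) and liver (y axis) Foxp3 cells, for genes at 25 CPM or more in either liver library and above 0 in each library; the dotted line marks equal ratios. Igf2bp3 and Oas1a lie near that line, Nkg7, Slamf7 and Lag3 well above it.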

How the data were processed

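Single-cell libraries of sorted CD4+ Foxp3GFP+ cells were analysed, 1 for each age and tissue. Whole-number UMI counts for each gene and barcode were deposited. Their headers name Cell Ranger 4.0.0, and the submitters' processing notes name mm10 and Seurat 4.0.2. The annotation release and the strand setting are not given in the sources used here. T cell receptor libraries were not analysed here. Gene positions and exon overlaps come from GENCODE vM21, and promoters from RefSeq (GRCm38.p6).

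Counts of the chosen cells were summed per library and divided by the total (CPM), with exact Poisson, conditional binomial or Clopper-Pearson 95% intervals. The ratio script was tested on simulated data. No test between ages was made, because there is 1 library per group. No doublet caller was run, and an alternative left out the 5% of cells with most UMIs. Python 3.11.15, scipy 1.17.1 and R 4.3.3 were used, with edgeR 4.0.16 for an alternative scaling (TMM).

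Named genes needed 25 CPM and 100 UMIs in either liver library, and are the 15 with the highest ratio and the 15 with the lowest. Segments of antigen receptors, genes for ribosomal proteins or haemoglobin, mitochondrial genes and those without a proper name were passed over. So were genes of the Y chromosome and the X-inactivation genes Xist, Tsix, Jpx and Ftx, while other X-linked genes were kept. Added were up to 6 members of each of 24 lists with the largest ratio, up to 2 at the other end of a list, and the T and Treg cell markers, 150 genes in all. Other list members named with values (among them Prf1, Fasl, Cxcr4, Hspa1a, Hspa1b, Gbp2, Cdkn1c and Arid3a) were chosen after their values were seen. The cells and lists were chosen with earlier results of these data known. Positions refer to GRCm38. Results that need certain genes, among them a split of the cells, are not reported here.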

Additional observations from a re-analysis of the deposited data

How the results depend on the processing

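The results were recomputed under 18 planned settings and 1 chosen after seeing the data, and those on a split of the cells are not given. The 170 genes higher at 12 days became 315 at a minimum of 10 CPM, 49 at 100 CPM and 261 without the 10 highest cells of each gene, and the 271 higher at 7 weeks became 459, 89 and 189. Leaving out those cells takes a larger part of the smaller 7-week library, and the median of all genes was then 0.14. TMM scaling gave 196 and 244 genes, and totals without ribosomal protein, mitochondrial and receptor genes 199 and 374. With cells thinned to 1500 UMIs there were 193 and 280 genes, which held 79.4% and 80.8% of the 170 and 271. With the rule applied after thinning there were 218 and 298, which held 78.2% of each. Of 81 named genes at 2-fold or more, between 64 (79%, without cells with 3 or more DNA replication UMIs) and 81 stayed so under the settings given. The 2 settings with thinning kept 69 and 73 of them. The median of the Treg identity list turned to 0.02 with no Foxp3 requirement, 0.03 without cells with other lineage markers and 0.07 without cells with 3 or more DNA replication UMIs. The tissue repair median was 0.00 when the rule followed thinning. Leaving out cells with DNA replication UMIs, which by construction removes such RNA, turned the median of that list to -0.19 and Mcm5 to -0.80. Genes outside that list also fell below 2-fold under this setting, with the sign kept. Among them were Klf2 (log2 ratio -0.75), Il7r (-0.73), Nrp1 (-0.92), Nt5e (-0.81), Tbx21 (0.85), Id2 (0.99) and Tpi1 (0.70). No paired analysis was possible because each group has 1 library. Depth limits the 7-week values, which rest on 4598566 UMIs against 19406950 at 12 days.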

Other observations

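Genes outside the lists, chosen after their values were seen, include a further set linked to temperature. Rbm3 and Cirbp encode RNA-binding proteins that cells make more of in the cold. Rbm3 stood at 1658 CPM in the 12-day liver cells and 654 CPM at 7 weeks, and Cirbp at 226 and 73.9 CPM. In the spleen their ratios, 12 days over 7 weeks, were 2.71 and 3.22. Heat shock genes leaned the opposite way: Hsph1, a cochaperone of the HSP110 family, stood at 26.3 CPM at 12 days and 118 CPM at 7 weeks, and Dnaja1 at 205 and 546 CPM. Handling temperature and time are not given by age, and their part was not tested. Features that overlap ribosomal RNA repeats also differed, Gm42418 at 3452 and 11305 CPM and AY036118 at 208 and 1279 CPM.

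Further genes of unlike function were unequal in liver. Rln3, which encodes a relaxin-family peptide, stood at 729 CPM at 12 days and 129 CPM at 7 weeks. Epcam, an epithelial adhesion gene, stood at 142 and 22 CPM, while the bile duct keratin genes Krt19 and Krt7 had no UMI at either age. Irf8, a transcription factor of the interferon regulatory family, stood at 141 CPM at 12 days and 41.3 CPM at 7 weeks, against the direction of the interferon response lists. Tnfaip3, the NF-kappaB inhibitor A20, stood at 52.5 and 179 CPM, and the glycerol channel gene Aqp3 at 6.34 and 31.1 CPM.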
